A study of Mus musculus with 11 samples.

Results

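The Schlafen genes are the 7 members named Slfn1, Slfn2, Slfn3, Slfn4, Slfn5, Slfn8 and Slfn9, chosen by symbol from the 49315 genes of the count table, and 7 of 7 were found there and passed the filter on low counts. They were measured in whole skin of 11 neonatal Foxp3-DTR mice on a C57BL/6J background, in which the diphtheria toxin receptor and GFP are expressed from the Foxp3 locus so that diphtheria toxin (DT) removes regulatory T cells (Tregs). Every mouse carried this allele, and the 2 control mice received PBS in place of DT. By the study's methods, the 3 ΔETreg mice (early DT) received DT intraperitoneally on postnatal days 6 and 8 and were harvested on day 9, and the 3 ΔLTreg mice (late DT) received it on days 10 and 12 and were harvested on day 13. The 3 ΔTreg mice (full DT) received 4 injections between days 6 and 12 and were harvested on day 13. The study describes its comparisons with control as matched for age, but no day of harvest is labelled for either control mouse, and the same 2 mice stand against groups of day 9 and of day 13. Age and treatment therefore cannot be told apart from the labels in these comparisons.

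Schlafen genes encode a rodent-expanded family of proteins that share an N-terminal Schlafen core with RNA-binding and, in several members, RNA-cleaving activity. They are known as genes induced by interferons and as regulators of thymocyte and T cell growth and of myeloid cell differentiation. The short members Slfn1 and Slfn2 consist of little more than the core, the intermediate members Slfn3 and Slfn4 carry an additional linker domain, and the long members Slfn5, Slfn8 and Slfn9 add a helicase-like C-terminal part.

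On mouse chromosome 11 (GRCm38) the members lay between positions 82951349 and 83215154, a stretch of 263806 bp. By the GENCODE annotation the longest protein had 337 residues for Slfn1 and 378 for Slfn2, 602 for Slfn4 and 640 for Slfn3, and 884 for Slfn5 and 910 for each of Slfn8 and Slfn9. Slfn5, Slfn2, Slfn1, Slfn4 and Slfn3 were on the plus strand, and Slfn9, Slfn8 and the pseudogene Slfn10-ps were on the minus strand between Slfn5 and Slfn2. The exons of Slfn5 overlapped those of the antisense gene Slfn5os by 559 bp, and Slfn5os had at most 4 counts in any library. Of all 100-base words in the transcripts, 3.39% of those of Slfn8 and 3.71% of those of Slfn9 also occurred in another family gene, mostly Slfn10-ps, and the study's methods speak of unique counts within exons without saying what was done with reads that match several genes.

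The libraries held between 23377571 counts (ΔETreg mouse 3) and 34159435 counts (ΔTreg mouse 2), and levels are given as CPM (counts scaled to a common depth) scaled by edgeR's TMM factors. Foxp3 itself was counted 20 and 14 times in control skin, 10, 16 and 11 times in ΔETreg skin, 23, 13 and 13 times in ΔLTreg skin and 9, 19 and 18 times in ΔTreg skin. At this depth a lower Foxp3 level was not detectable in ΔTreg skin (log2 fold change −0.30, SE 0.31, adjusted p = 0.546 against control). Nor did Foxp3 pass against control in ΔETreg skin (−0.49, SE 0.32) or in ΔLTreg skin (−0.23, SE 0.31). The study reports efficient Treg depletion in skin by flow cytometry for its early and late DT regimens. Foxp3 counts this low in whole skin cannot decide whether Tregs were lost in these mice. The group names, which are the study's, stand here for the treatment alone.

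Levels of different members were compared per length, as counts per kilobase of merged exon at a common depth (RPKM, from the CPM). In control skin Slfn9 had the highest level (5.28 ± 0.0946 RPKM, mean ± SD, n = 2), followed by Slfn5 (4.90 ± 1.36 RPKM) and Slfn2 (3.49 ± 1.58 RPKM). The range of Slfn5 overlapped those of both others, and Slfn2 was below Slfn9 in each control mouse. Slfn1 (0.991 ± 1.07 RPKM), Slfn8 (0.497 ± 0.290 RPKM), Slfn4 (0.478 ± 0.661 RPKM) and Slfn3 (0.342 ± 0.0620 RPKM) were lower and overlapped one another. In ΔTreg skin the order changed, and Slfn2 led with 22.3 ± 3.72 RPKM (n = 3), above Slfn5 with 10.5 ± 0.856 RPKM in every mouse. Slfn1 (5.75 ± 1.55 RPKM) and Slfn9 (5.23 ± 0.384 RPKM) came next with overlapping ranges, and Slfn8 (1.83 ± 0.274 RPKM), Slfn4 (1.51 ± 0.564 RPKM) and Slfn3 (0.464 ± 0.0716 RPKM) were last. Summed over the 7 members, the level was 16.0 ± 5.0 RPKM in control, 14.0 ± 1.52 RPKM in ΔETreg, 18.6 ± 5.24 RPKM in ΔLTreg and 47.7 ± 6.70 RPKM in ΔTreg skin. Slfn2 made up 21.8% of that sum in control skin and 46.8% in ΔTreg skin, and the Slfn9 share was 33.0% and 11%.

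**Figure D1:**
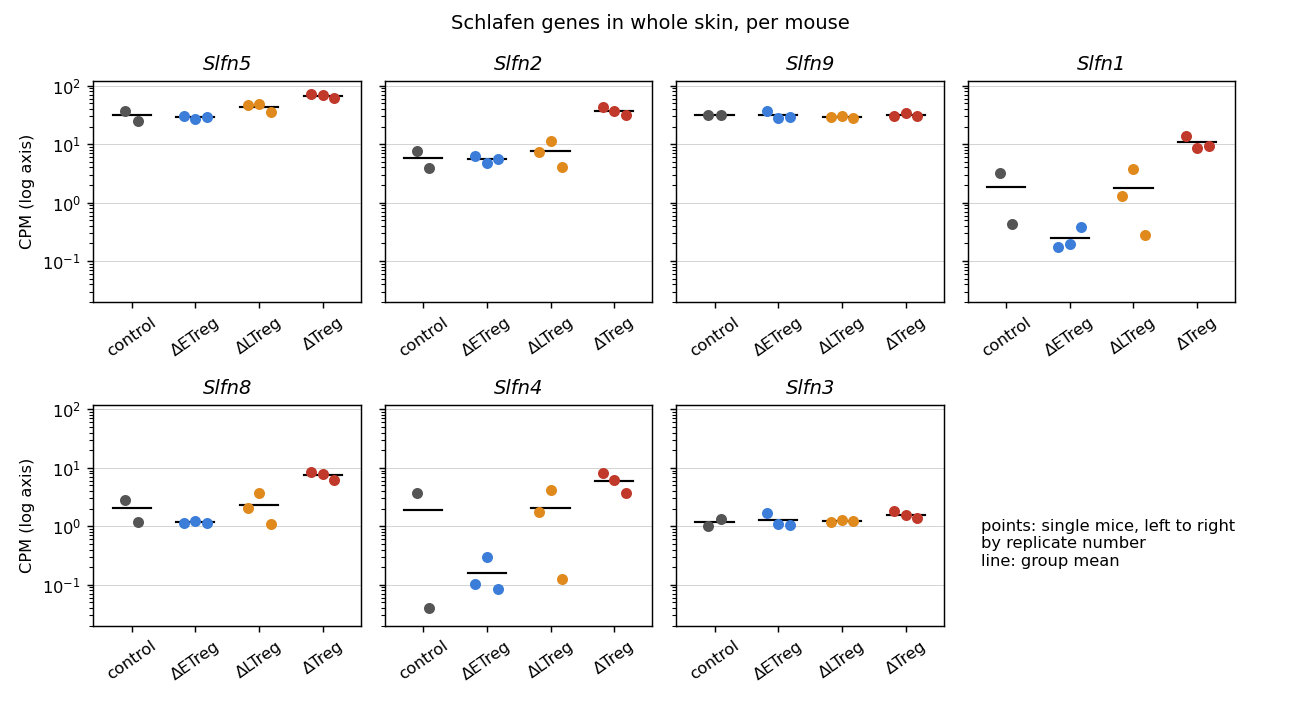
CPM on a log axis of the 7 Schlafen genes in each mouse of the control, ΔETreg, ΔLTreg and ΔTreg groups, with points for mice and lines for group means. Slfn2 lies between 31.5 and 43.7 CPM in ΔTreg skin and between 3.94 and 11.5 CPM in the other 8 mice, whereas Slfn9 lies between 27.5 and 36.8 CPM in all 11.

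Skin of mice given DT over the whole window was compared with control skin. Slfn1, Slfn2, Slfn5 and Slfn8 were higher in ΔTreg skin, so that 4 of 7 members passed the test (edgeR quasi-likelihood, Benjamini-Hochberg adjusted p under 0.05 over 18375 genes), where 21.5% of all genes tested did in either direction and 12.1% were higher. The median log2 fold change of the 7 members was 1.61, and that of all genes tested was −0.01. In whole tissue, more cells of a type and more RNA per cell cannot be told apart.

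Of the short members, Slfn2, known for keeping T cells quiescent and for binding tRNA, was at 7.67 and 3.94 CPM in control skin and at 43.7, 36.3 and 31.5 CPM in the ΔTreg mice. All ΔTreg mice were thus above both control mice, and the log2 fold change was 2.66 (SE 0.38, adjusted p = 0.000597). The log2 fold change lay between 2.27 and 3.23 over the alternatives, each past the threshold. Slfn1, first described as a brake on thymocyte growth, was at 3.26 and 0.438 CPM in control skin and at 14.0, 8.70 and 9.43 CPM in the ΔTreg mice. These groups did not overlap either, and Slfn1 rose by a log2 fold change of 2.49 (SE 0.76, adjusted p = 0.0387). The Slfn1 call rested on single libraries: the adjusted p was 0.229 without control mouse 2, 0.103 without ΔTreg mouse 1, 0.0649 without ΔTreg mouse 2 and 0.0672 without ΔTreg mouse 3, and it was 0.0742 with DESeq2. Over the alternatives its log2 fold change lay between 1.70 and 4.59.

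Of the intermediate members, Slfn4, a gene of monocytes, macrophages and neutrophils, was at 3.75 and 0.0398 CPM in control skin and at 8.10, 6.18 and 3.65 CPM in the ΔTreg mice. Control mouse 1 (107 counts) fell within the range of ΔTreg skin and control mouse 2 had 1 count. The log2 fold change of 1.61 (SE 0.99) had an adjusted p of 0.285, and over the alternatives the log2 fold change lay between 0.65 and 7.07. The adjusted p was 0.0394 without control mouse 1, where the control left had 1 count, and 0.732 without control mouse 2, and it was 0.00176 with no filter beyond 1 count. Slfn3, described in T cells and in intestinal epithelium, had between 25 and 52 counts in all 11 libraries. Its level was 1.17 ± 0.211 CPM in control (n = 2) and 1.58 ± 0.244 CPM in ΔTreg skin (n = 3), and the groups did not overlap, with a log2 fold change of 0.44 (SE 0.25, adjusted p = 0.247).

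Of the long members, Slfn5, an interferon-induced nuclear protein, was at 37.1 and 24.9 CPM in control skin and at 71.2, 68.2 and 60.7 CPM in the ΔTreg mice. It was higher in every ΔTreg mouse than in both control mice, with a log2 fold change of 1.10 (SE 0.16, adjusted p = 0.000817), and kept its call when any library was left out. Slfn8, a member with a helicase-like part, was at 2.87 and 1.2 CPM in control skin and at 8.40, 7.84 and 6.24 CPM in the ΔTreg mice. The groups did not overlap, and the log2 fold change was 1.86 (SE 0.43, adjusted p = 0.0100), with an adjusted p of 0.105 without control mouse 2 and log2 fold changes from 1.37 to 2.64 over the alternatives that kept Slfn8 as a gene of its own. Slfn9, the neighbour of Slfn8 with a protein of the same length, was at 31.9 and 31.1 CPM in control skin and at 30, 33.9 and 29.8 CPM in the ΔTreg mice. Its groups overlapped, and the log2 fold change was −0.01 (SE 0.11, adjusted p = 0.954), with values from −0.07 to 0.02 over the alternatives that kept Slfn9 as a gene of its own. The difference in response between Slfn8 and Slfn9 was not tested as such. The pseudogene Slfn10-ps between Slfn8 and Slfn2 rose from 1.12 ± 0.0567 CPM (n = 2) to 3.14 ± 0.777 CPM (n = 3), a log2 fold change of 1.48 (SE 0.30, adjusted p = 0.00530), with values from 1.30 to 1.65 over the alternatives and an adjusted p of 0.0524 without control mouse 2. With the counts of Slfn8, Slfn9 and Slfn10-ps summed, the log2 fold change was 0.27 (adjusted p = 0.108), a sum in which Slfn9 held most of the counts. The same sum passed against ΔLTreg skin (0.38, adjusted p = 0.0225) and against ΔETreg skin (0.31, adjusted p = 0.0430).

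The ΔTreg and ΔLTreg mice were harvested on the same day and differed in DT on days 6 and 8, so that this comparison asks what the earlier injections add. Again 4 of 7 members were higher in ΔTreg skin, against 10.7% of all genes tested that were higher and 16.8% that passed in either direction, and the 4 were Slfn1, Slfn2, Slfn5 and Slfn8. Slfn2 was at 7.21, 11.5 and 4.07 CPM in the ΔLTreg mice, below every ΔTreg mouse, with a log2 fold change of 2.30 (SE 0.31, adjusted p = 0.000545). Slfn5 was at 45.8, 47.8 and 35.4 CPM in the ΔLTreg mice, and its log2 fold change of 0.63 (SE 0.14, adjusted p = 0.0105) was the smallest of the 4. Slfn8 was at 2.06, 3.73 and 1.10 CPM in the ΔLTreg mice and rose by a log2 fold change of 1.73 (SE 0.36, adjusted p = 0.00739). Slfn2, Slfn5 and Slfn8 were thus higher in each ΔTreg mouse than in each ΔLTreg mouse. Slfn1 was at 1.31, 3.76 and 0.282 CPM in the ΔLTreg mice, also below every ΔTreg mouse. Its log2 fold change was 2.63 (SE 0.66, adjusted p = 0.0187). Slfn3, which did not pass, separated likewise, and the share of all genes that do so was not counted. The adjusted p of Slfn1 was 0.0598 without ΔLTreg mouse 1 and 0.0686 without ΔTreg mouse 1, and its log2 fold change lay between 2.11 and 3.72 over the alternatives. For Slfn4 (log2 fold change 1.6, SE 0.86, adjusted p = 0.240, and 0.000246 with no filter beyond 1 count), Slfn3 (0.35, SE 0.22, adjusted p = 0.312) and Slfn9 (0.11, SE 0.10, adjusted p = 0.475) the test was not passed.

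Against ΔETreg skin, harvested 4 days earlier after the same injections on days 6 and 8, 5 of 7 members were higher in ΔTreg skin, where 13.2% of all genes tested were higher and 23.1% passed in either direction. Slfn1 was at 0.174, 0.197 and 0.386 CPM in the ΔETreg mice, which is 5, 6 and 9 counts. All were below every ΔTreg mouse, with a log2 fold change of 5.43 (SE 0.88, adjusted p = 0.00107). Slfn4 was at 0.104, 0.296 and 0.0857 CPM in the ΔETreg mice, from 3, 9 and 2 counts, and rose by a log2 fold change of 5.10 (SE 1.24, adjusted p = 0.0122), with values from 4.83 to 5.89 over the alternatives and an adjusted p of 0.0509 without ΔETreg mouse 1. Slfn2 was at 6.16, 4.73 and 5.61 CPM in the ΔETreg mice and had a log2 fold change of 2.75 (SE 0.33, adjusted p = 0.000129). Slfn8 was at 1.15, 1.25 and 1.16 CPM in the ΔETreg mice and rose by a log2 fold change of 2.65 (SE 0.39, adjusted p = 0.000602). Slfn5 was at 30.5, 26.6 and 29.1 CPM in the ΔETreg mice and rose by a log2 fold change of 1.22 (SE 0.14, adjusted p = 0.000134). Slfn1, Slfn4, Slfn2, Slfn8 and Slfn5 did not overlap between the ΔTreg and ΔETreg groups, and the share of all genes that separate so was not counted. Slfn3 and Slfn9 did not pass (log2 fold changes 0.28 and −0.01, adjusted p = 0.410 and 0.939). Harvest day and the later injections cannot be told apart in this comparison.

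Between the groups with 2 injections each, 1 of 7 members was higher in ΔLTreg than in ΔETreg skin, against 3.12% of all genes tested that were higher and 6.38% that passed in either direction. This was Slfn5, whose ΔLTreg values lay above all ΔETreg values, with a log2 fold change of 0.58 (SE 0.14, adjusted p = 0.0392). The adjusted p of Slfn5 was 0.0816, 0.150 and 0.0956 without ΔETreg mouse 1, 2 and 3, and 0.0896 and 0.103 without ΔLTreg mouse 1 and 2, and the log2 fold change lay between 0.50 and 0.69 over the alternatives. Slfn1 (log2 fold change 2.79, SE 1.01, adjusted p = 0.129) and Slfn4 (3.50, SE 1.37, adjusted p = 0.157) had the larger fold changes and a wide spread among the ΔLTreg mice. Slfn1 passed with DESeq2 (adjusted p = 0.0437) and without ΔLTreg mouse 3 (adjusted p = 0.0388), with log2 fold changes between 1.70 and 3.31 over the alternatives. With no filter beyond 1 count, edgeR called Slfn5 and also Slfn1 (adjusted p = 7.42e-07), Slfn4 (1.07e-06) and Slfn8 (0.00744), beside 2173 of all 35745 genes. Harvest day and the days of DT cannot be told apart here either.

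The groups with 2 injections were also compared with control skin. In ΔETreg skin 0 of 7 members passed with edgeR, against 0.00544% of all genes tested, and 0 passed with DESeq2. At an unadjusted p under 0.05 there were 2, beside 872 of all 18375 genes tested, namely Slfn1 (log2 fold change −2.93, SE 1.08, unadjusted p = 0.0199) and Slfn4 (−3.49, SE 1.47, unadjusted p = 0.0364). The Slfn4 value rested on control mouse 1 and was 1.97 without it, and the Slfn1 value was then −0.84. With no filter beyond 1 count, edgeR called both Slfn1 (adjusted p = 3.66e-05) and Slfn4 (adjusted p = 0.000193) in ΔETreg skin, beside 54 of all 35745 genes. In ΔLTreg skin 0 of 7 members passed with edgeR, against 4.55% of all genes tested, and 0 with DESeq2, with 1 member, Slfn5, at an unadjusted p under 0.05 (log2 fold change 0.47, SE 0.16, unadjusted p = 0.0150, adjusted p = 0.134), beside 3715 of all 18375 genes tested. Slfn5 was called by edgeR in ΔLTreg skin with no filter beyond 1 count (adjusted p = 0.000439), beside 1790 of all 35745 genes. The comparisons with control share the same 2 control mice, and those with ΔETreg, ΔLTreg or ΔTreg skin share libraries too.

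Members differed widely in how much mice of the same group varied. Slfn9 varied by at most 1.31-fold between the lowest and the highest mouse of any group, and Slfn3 by at most 1.59-fold and Slfn5 by at most 1.49-fold. Slfn1 varied by 13.4-fold among the ΔLTreg mice and by 7.43-fold between the control mice, and by 1.61-fold among the ΔTreg mice. Slfn4 counts of control mice were 107 and 1, those of ΔLTreg mice 60, 106 and 4, and those of ΔTreg mice 189, 208 and 118. The libraries high for Slfn4 within their group, control mouse 1 and ΔLTreg mice 1 and 2, were also the higher ones for Slfn1, Slfn2 and Slfn8. The monocyte gene Ly6c2 was counted 71 and 3 times in control skin, 4, 8 and 4 in the ΔETreg mice, 49, 117 and 6 in the ΔLTreg mice and 280, 225 and 288 in the ΔTreg mice. Fcgr1, a high-affinity Fc receptor of monocytes and macrophages, was counted 171 and 56 times in control skin, 136, 244 and 35 in the ΔLTreg mice and between 38 and 52 in the ΔETreg mice. Within the control and ΔLTreg groups both genes were higher in the libraries in which Slfn4 was higher. ΔLTreg mouse 3, low for Slfn1 and Slfn4, also stood apart in summed markers of other cells. Its fibroblast markers were at 5939 CPM (11491 and 12882 in mice 1 and 2) and its mast cell markers at 52.3 CPM (103 and 119). Skeletal muscle markers were at 2833, 1143 and 3697 CPM in ΔLTreg mice 1, 2 and 3, with mouse 2 the lowest. Within ΔTreg skin Fcgr1 was counted 366, 428 and 415 times, and neither gene was lowest in mouse 3 as Slfn4 was. Their part in the Slfn1 and Slfn4 values was not tested.

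Over the 11 libraries the log2 CPM of Slfn1, Slfn2, Slfn4, Slfn5 and Slfn8 moved together, with Pearson's r from 0.835 (Slfn2 and Slfn4) to 0.978 (Slfn1 and Slfn8) and Spearman's rho from 0.791 to 0.936. Over the 8 libraries without ΔTreg, r among these 5 genes ranged from 0.756 (Slfn1 and Slfn5) to 0.964 (Slfn1 and Slfn8). Slfn9 had r between 0.0566 and 0.200 with them, and Slfn3 had r between 0.264 and 0.603, the latter with Slfn2. Without the ΔTreg libraries the r of Slfn3 was 0.00823 with Slfn2, −0.0508 with Slfn5, −0.227 with Slfn8, −0.321 with Slfn4 and −0.326 with Slfn1. These points share groups and depth, and the values are a description.

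Among 13891 other genes with a mean count of at least 50, those most like each member over the 11 libraries were looked up. For Slfn1 they were Csf3r (r = 0.980), Fcgr1 (r = 0.978) and Ly6c2 (r = 0.978), and for Slfn4 they were Ms4a4c (r = 0.978), Ly6c2 (r = 0.977) and Mnda (r = 0.966), all genes of myeloid cells. For Slfn5 they were Bst2 (r = 0.991), Ifit2 (r = 0.988) and Sp100 (r = 0.988), all known to be induced by interferons. Slfn8 was closest to the interferon-induced Oas3 (r = 0.990) and to the macrophage genes Aif1 (r = 0.987) and Ctss (r = 0.986). Slfn2 was closest to Irf8 (r = 0.991), Samhd1 (r = 0.991) and Carmil2 (r = 0.990). Left without the ΔTreg libraries, these 15 values ranged from 0.929 to 0.988. Slfn3 (Susd1, Ube2v1 and Chchd7, r from 0.869 to 0.912) and Slfn9 (Ccdc117, Zdhhc20 and Zfp943, r from 0.783 to 0.862) had lower values, and those of Slfn9 lay between 0.532 and 0.723 without the 2 libraries farthest from its median. The genes named for each member are the top of a search, so that high values were bound to be found.

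Schlafen genes are expressed in T cells and myeloid cells, and markers of these cells were measured beside them. Ptprc, which encodes the leukocyte antigen CD45, was at 13.9 and 10.9 CPM in control and at 52.3, 39.6 and 47.8 CPM in ΔTreg skin (log2 fold change 1.91, SE 0.24, adjusted p = 0.000301). Of the T cell list 9 of 9 genes were higher in ΔTreg skin, where 12.1% of all genes tested were higher, among them Cd3e (log2 fold change 1.56), Cd3d (2.16) and Cd8a, which had 0 and 2 counts in control and 238, 236 and 296 counts in ΔTreg skin. Summed over the list, with Cd3g as its most abundant gene, T cell markers were at 15.4 and 19.0 CPM in control, 16.3, 18.6 and 19.0 CPM in ΔETreg, 24.2, 22.0 and 19.4 CPM in ΔLTreg and 76.8, 61.6 and 78.6 CPM in ΔTreg skin. This sum and the neutrophil sum given below were lower in control mouse 1 than in control mouse 2. The monocyte and macrophage sum and the NK cell sum were higher in control mouse 1, as were Slfn1 and Slfn4. Of the monocyte and macrophage list 3 of 9 genes were higher in ΔTreg skin (12.1% of all genes tested), including Adgre1 (log2 fold change 1.37, adjusted p = 0.0357) and Mrc1 (2.04, adjusted p = 0.00108) but not Csf1r (0.72, adjusted p = 0.0680, and 0.00377 with the 2 groups fitted alone and 8.02e-07 with no filter beyond 1 count). The adjusted p of Adgre1 was 0.0933 and 0.214 without control mouse 1 and 2 and 0.0879 and 0.0864 without ΔTreg mouse 1 and 3, with log2 fold changes from 1.22 to 1.53 over the alternatives. The sum of that list, with Mrc1 as its most abundant gene, was 218 and 156 CPM in control, 159, 173 and 113 CPM in ΔETreg, 141, 217 and 87.3 CPM in ΔLTreg and 509, 366 and 468 CPM in ΔTreg skin. Of the neutrophil list 5 of 5 tested genes were higher, with S100a9 (log2 fold change 2.38) and S100a8 (0.69) named first, while Ly6g had at most 2 counts in any library. The adjusted p of S100a8 was 0.103 without control mouse 1, and its log2 fold change lay between 0.48 and 0.92 over the alternatives. The neutrophil sum, led by S100a8, was 13.3 and 14.1 CPM in control, 11.7, 8.84 and 9.43 CPM in ΔETreg, 17.0, 18.2 and 17.4 CPM in ΔLTreg and 40.9, 32.7 and 34.9 CPM in ΔTreg skin. Of the NK cell list, led by Klrk1, 4 of 4 genes were higher, of which Ncr1 (counts of 2 and 0 in control) had an adjusted p of 0.122 without control mouse 2 and Klrb1c (counts of 1 and 3) of 0.0614 without control mouse 1. The sum of the list was 1.47 and 1.2 CPM in control, 1.08, 1.15 and 1.11 CPM in ΔETreg, 1.94, 2.35 and 1.28 CPM in ΔLTreg and 6.73, 5.08 and 6.52 CPM in ΔTreg skin. The part of these cells in the Schlafen values was not tested.

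Each Schlafen gene was also set against Ptprc, in values without a test. The log2 ratio of Slfn2 to Ptprc was −0.86 and −1.46 in control skin and −0.26, −0.13 and −0.60 in the ΔTreg mice, a mean difference of 0.83 without overlap. The Slfn8 ratio was −2.28 and −3.19 in control and −2.64, −2.34 and −2.94 in ΔTreg skin, a mean difference of 0.09 within the spread. The Slfn5 ratio was 1.42 and 1.19 in control and 0.45, 0.79 and 0.34 in ΔTreg skin, a mean difference of −0.78 without overlap. For Slfn9 (mean difference −1.93) and Slfn3 (−1.47) the ratio was also lower in each ΔTreg mouse. For Slfn1 (1.22) and Slfn4 (1.96) the ratios of control and ΔTreg skin overlapped. The reference mattered: with the macrophage gene Csf1r in place of Ptprc the difference was 2.03 for Slfn2, 1.29 for Slfn8 and 0.42 for Slfn5, and with the T cell gene Cd3e it was 1.14, 0.40 and −0.47.

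**Figure D2:**
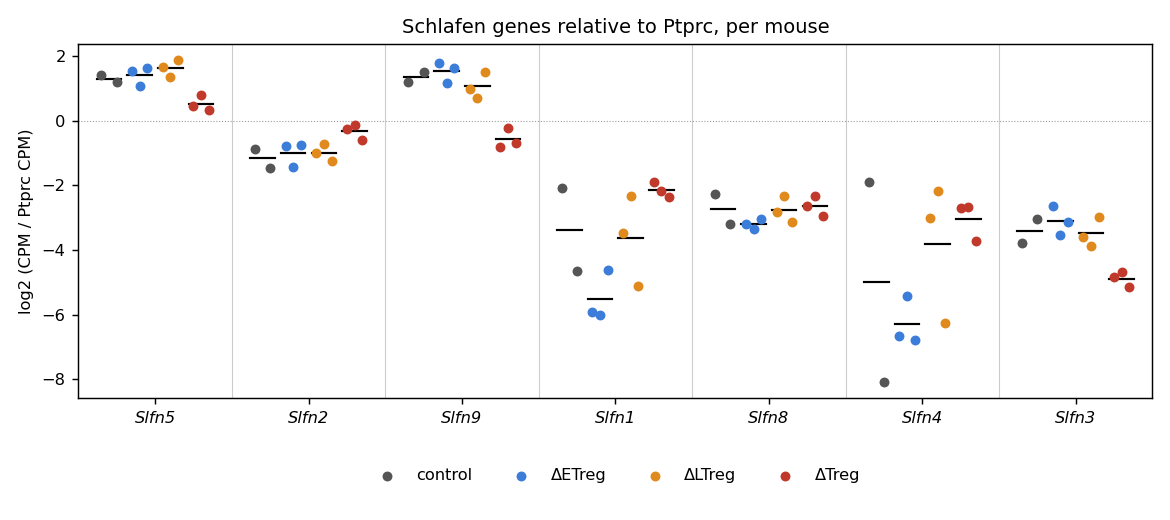
The log2 ratio of the CPM of each Schlafen gene to the CPM of Ptprc in each mouse, coloured by group, with lines for group means. The ΔTreg mice lie above the control mice for Slfn2 (mean difference 0.83) and below them for Slfn5 (−0.78), Slfn9 (−1.93) and Slfn3 (−1.47).

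The interferon pathway, which induces Schlafen genes, was described with a list of 29 genes, of which 24 were tested. In ΔTreg against control skin 17 rose and 0 fell, with a median log2 fold change of 0.71 beside −0.01 over all genes tested, of which 12.1% were higher and 21.5% passed. Among the ligands the counts of Ifng were 3 and 0 in control and 54, 82 and 57 in ΔTreg skin (edgeR adjusted p = 0.000769). Ifnb1 had at most 2 counts in any library and was at 0 in ΔTreg skin. Of the 6 ligand genes 1, Ifng, was tested, and the list held no Ifna gene. Of the 6 receptor genes 3 rose, including Ifngr1 (log2 fold change 0.76, adjusted p = 0.000145) and Ifnar2 (0.60, adjusted p = 0.00437) but not Ifnar1 (−0.06, adjusted p = 0.583). Of the 3 kinase genes 2 rose, Jak1 (0.28, adjusted p = 0.00939, and 0.0822 without control mouse 2, with 0.23 to 0.33 over the alternatives) and Jak2 (0.52, adjusted p = 0.000474). Of the 9 transcription factor genes 8 rose, among them Stat2 (2.12, adjusted p = 1.41e-05), and of the 5 inhibitor genes 3 rose, among them Socs1 (2.10) and Socs3 (1.41). In ΔLTreg against control skin, where 0 of 7 Schlafen genes passed, 2 of the 24 rose, beside 1.86% of all genes tested, and in ΔETreg skin 0 did. A second list of 12 genes of T cell quiescence and of tRNA cleavage, the processes in which Slfn2 is known, had 5 higher and 1 lower gene in ΔTreg skin with a median log2 fold change of 0.13, beside 21.5% of all genes tested that passed and a median of −0.01. The higher ones were Btg2, Tsc22d3, Vsir, Ang and Rnh1 and the lower was Foxp1, named here after their values were seen.

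Promoter windows of RefSeq (GRCm38.p6), from 250 bases before to 50 after a gene's start, were found for all 7 members and searched on both strands for the core letters of the interferon-stimulated response element, GAAANNGAAA, and for those of the gamma-activated site, TTCNNNGAA. The first occurred in 3.44% and the second in 8.30% of 32851 windows. Among the members GAAANNGAAA was found in Slfn5, Slfn8 and Slfn9 and TTCNNNGAA in none, and these letters were not in the windows of Slfn1, Slfn2, Slfn3 and Slfn4. The match began 155 bases before the start in Slfn5, 45 in Slfn9 and 48 in Slfn8, where a second window (chr11:83020673-83020972) starts elsewhere and has the same match 136 bases before its start. The windows of Slfn8 and Slfn9 held the match in the same letters. In ΔTreg against control skin Slfn8 rose and Slfn9 had a log2 fold change of −0.01. The part of these letters in the Schlafen values was not tested. The windows of Slfn5, Slfn8, Slfn9 and Slfn2 are shown to let their letters be compared, with the match in capitals.
Slfn5 (chr11:82951852-82952151, + strand): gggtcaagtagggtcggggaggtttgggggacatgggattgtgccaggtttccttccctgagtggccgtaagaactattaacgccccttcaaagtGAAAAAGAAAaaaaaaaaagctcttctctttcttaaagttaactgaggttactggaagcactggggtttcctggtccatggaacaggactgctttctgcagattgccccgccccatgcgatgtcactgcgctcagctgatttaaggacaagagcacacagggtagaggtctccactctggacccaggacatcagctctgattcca
Slfn8 (chr11:83020761-83021060, - strand): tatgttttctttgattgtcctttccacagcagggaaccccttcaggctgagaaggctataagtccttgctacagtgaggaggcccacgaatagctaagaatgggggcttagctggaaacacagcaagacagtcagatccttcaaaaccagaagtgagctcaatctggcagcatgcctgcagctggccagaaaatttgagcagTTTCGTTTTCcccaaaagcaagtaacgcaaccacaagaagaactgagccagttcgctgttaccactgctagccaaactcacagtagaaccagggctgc
Slfn9 (chr11:82991781-82992080, - strand): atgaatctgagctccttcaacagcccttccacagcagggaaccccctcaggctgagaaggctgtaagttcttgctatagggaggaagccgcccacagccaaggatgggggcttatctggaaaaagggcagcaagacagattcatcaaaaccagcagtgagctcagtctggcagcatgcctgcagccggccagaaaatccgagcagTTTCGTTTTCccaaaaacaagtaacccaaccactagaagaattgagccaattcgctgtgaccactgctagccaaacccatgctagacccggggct
Slfn2 (chr11:83064862-83065161, + strand): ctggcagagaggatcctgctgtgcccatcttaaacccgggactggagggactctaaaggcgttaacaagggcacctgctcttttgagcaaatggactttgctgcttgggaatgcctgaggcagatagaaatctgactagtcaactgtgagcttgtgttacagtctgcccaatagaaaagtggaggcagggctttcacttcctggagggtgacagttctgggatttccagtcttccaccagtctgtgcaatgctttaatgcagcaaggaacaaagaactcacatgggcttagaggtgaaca

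The genes around the cluster were described by position. Within 200 kb to either side of the outermost members and between them the annotation had 32 neighbours, of which 17 were tested and 2 passed in ΔTreg against control skin, both higher, beside 21.5% of all genes tested that passed and 12.1% that were higher. They lie next to Slfn3, and are the transcript AI662270 (log2 fold change 1.46, SE 0.22, adjusted p = 0.000950) and the pseudogene Gm11427 (2.03, SE 0.65, adjusted p = 0.0472), at 83223576 and 83224454 on the plus strand. Gm11427, with 0.132 ± 0.0384 CPM in control (n = 2) and 0.541 ± 0.0626 CPM in ΔTreg skin (n = 3), shares 100-base words with Slfn3 and had an adjusted p of 0.200 and 0.158 without control mouse 1 and 2, of 0.0789, 0.109 and 0.0933 without ΔTreg mouse 1, 2 and 3, and of 0.109 with DESeq2. In ΔTreg against ΔLTreg skin 5 of the 17 passed (edgeR quasi-likelihood), beside 16.8% of all genes tested. Among them AI662270 (log2 fold change 1.71, adjusted p = 0.000162), Gm11427 (3.50, adjusted p = 0.00474) and Gm11425 (1.14, adjusted p = 0.0181) were higher. Unc45b was lower (−0.45, adjusted p = 0.0494), with overlapping groups at 9.09 and 12.3 CPM. In control skin Unc45b was at 7.88 CPM. It passed as higher in ΔLTreg skin against control (0.65, adjusted p = 0.0446) and ΔETreg skin (0.63, adjusted p = 0.0263). Of the remaining family genes Slfn14, next to the cluster, had at most 1 count in any library, and Slfnl1, on chromosome 4, at most 3, and neither was tested.

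**Figure D3:**
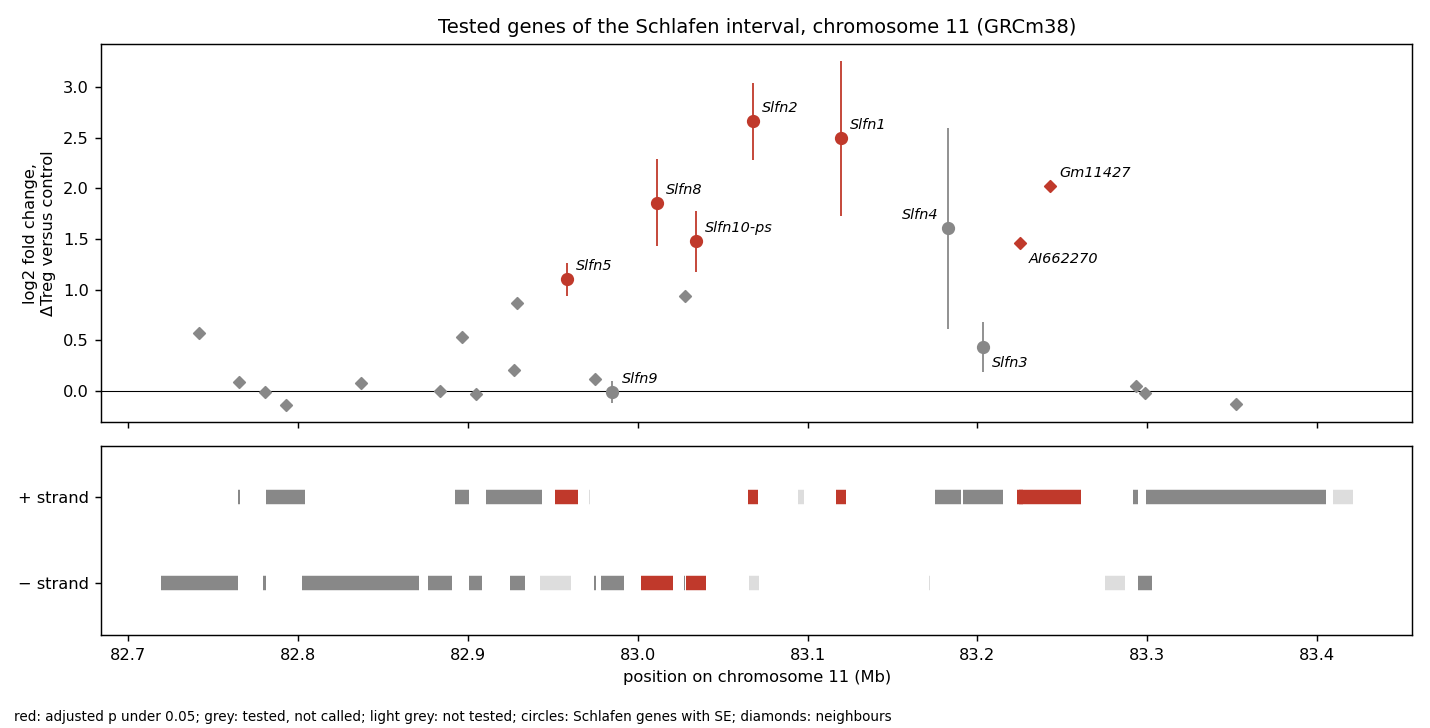
Log2 fold change in ΔTreg against control skin of the tested genes of the Schlafen interval on chromosome 11 (top, with SE for Schlafen genes) and the annotated genes on either strand (bottom), by position in Mb. Genes that passed are red, and the members range from −0.01 for Slfn9 to 2.66 for Slfn2.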

How the data were processed

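The authors deposited a table of raw read counts per gene for the 11 libraries of polyadenylated RNA from whole skin. The submitters' processing notes name Trimmomatic 0.36, STAR 2.5.2b, featureCounts of Subread 1.5.2 and the build GRCm38, and the annotation release and strand setting are not given in the sources used here. The deposited counts of all 49315 genes entered edgeR 4.0.16 (R 4.3.3). Genes passing filterByExpr (18375) were scaled by TMM and fitted in 1 quasi-likelihood model with a mean per group, leaving 7 residual degrees of freedom, and p-values were adjusted by Benjamini-Hochberg over all 18375 genes, with a call at an adjusted p under 0.05. SE is the absolute log2 fold change over the square root of F. The test was tested on simulated counts. Each library is taken as 1 mouse, and all are of batch 1. Counts per library limit genes near 0, such as Slfn4 in ΔETreg skin.

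Alternatives were DESeq2 1.42.0, fits of 2 groups alone, DESeq2 size factors, library size alone, no filter beyond 1 count, at least 10 counts in every library, each library left out, summed paralog counts and, for the ratios, other reference genes. The alternatives of the correlations and of the companion genes were chosen after seeing the data. Named genes are the members, the remaining family genes, Ptprc, Foxp3, for each member the 3 genes with the highest Pearson correlation of log2 CPM (prior count 2), of the interferon and marker lists the first 2 genes and the gene with the smallest p in ΔTreg against control skin, and neighbours that passed; 2 genes that this rule takes are left out of the text and of the reruns. Members and lists were chosen with earlier results of these data known. Exon lengths for RPKM come from GENCODE M21, and promoter sequences from RefSeq. The planned comparison of protein sequences was not run, as no protein table was available. The study's own test, DESeq2, is kept as an alternative. Genes of the T cell, NK cell, monocyte, neutrophil and interferon lists alone are named and rerun, a choice made after the values were seen; the other marker lists are given as counts. A correlation counts as unchanged within 0.1, also set after the values were seen.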

Additional observations from a re-analysis of the deposited data

How the results depend on the processing

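Over all alternatives, 753 log2 fold changes kept their direction and their side of the threshold, 30 kept the direction and no longer passed, 18 kept it and newly passed, and 36 turned. Slfn2 and Slfn5 passed under every alternative in ΔTreg skin against control, ΔLTreg and ΔETreg skin. With each library left out in turn, 2 to 5 members passed in ΔTreg against control skin, beside 2026 to 3493 of all genes, and 0 to 2 in ΔLTreg against ΔETreg skin, beside 353 to 1172; a lone control is then assumed to vary like the other groups. With no filter beyond 1 count, 2 members passed in ΔETreg and 1 in ΔLTreg against control skin, and 4 in ΔLTreg against ΔETreg skin, where DESeq2 gave 2 (beside 54, 1790 and 2173 of all 35745 genes with no filter and 1563 of 16046 with DESeq2); Slfn4 also newly passed in ΔTreg against control and ΔLTreg skin. With at least 10 counts in every library Slfn1 and Slfn4 have no value, so that 3 members passed in ΔTreg against ΔETreg skin, beside 3754 of 15633 genes. Log2 fold changes that turned with a library left out ranged, in ΔETreg against control skin, from −0.48 to 0.48 (Slfn2), −0.10 to 0.35 (Slfn3), −4.44 to 1.97 (Slfn4), −0.37 to 0.21 (Slfn5), −0.12 to 0.0780 (Slfn9) and −0.36 to 0.0630 (Slfn10-ps). In ΔLTreg against control skin they ranged from −1.22 to 1.96 (Slfn1), −0.0406 to 0.93 (Slfn2), −0.0925 to 0.28 (Slfn3), −0.99 to 5.47 (Slfn4) and −0.37 to 0.91 (Slfn8). In ΔTreg against control skin they ranged from −0.0739 to 0.0224 (Slfn9), against ΔETreg skin from −0.0896 to 0.11 (Slfn9), and in ΔLTreg against ΔETreg skin from −0.19 to 0.19 (Slfn3) and −0.30 to 0.12 (Slfn10-ps). The strict filter gave 0.00304 for Slfn9 in ΔTreg against control skin. Paralog sums turned Slfn9 to −0.0378 and Slfn3 to −1.08 in ΔETreg and Slfn8 to −0.11 in ΔLTreg against control skin, Slfn9 to 0.27 in ΔTreg against control and 0.31 against ΔETreg skin, and Slfn8 to −0.0704 and Slfn3 to 1.13 in ΔLTreg against ΔETreg skin, and the sum of Slfn3 and Slfn4 newly passed in ΔTreg against ΔETreg skin (2.36, adjusted p = 0.00728); such a sum holds the counts of several genes. The mean difference in log2 ratio with Csf1r for Ptprc was 2.42 (Slfn1), 2.03 (Slfn2), −0.27 (Slfn3), 0.42 (Slfn5), 1.29 (Slfn8) and −0.73 (Slfn9), and with Cd3e −0.47 (Slfn5) and −1.62 (Slfn9). No paired analysis was possible because the labels give each library its own number, shared by no other group, and the mouse numbers in the text only follow the listing. Apart from these constructions, the cause was not tested. Depth limits Slfn1 and Slfn4 in ΔETreg skin, at 2 to 9 counts.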

Other observations

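Of the marker lists that the report does not describe, these genes passed in ΔTreg against control skin (edgeR quasi-likelihood test, adjusted p under 0.05): Treg 3 higher and 0 lower of 5, dendritic and Langerhans cell 1 higher and 1 lower of 5, mast cell 0 of 4, B cell 0 of 2, keratinocyte 1 higher and 2 lower of 5, fibroblast 0 higher and 2 lower of 5, endothelium 1 higher and 2 lower of 4, melanocyte 0 higher and 4 lower of 4, adipocyte 0 of 4, skeletal muscle 1 higher and 0 lower of 4 and erythroid 0 higher and 1 lower of 3. Of all genes tested 21.5% passed and 12.1% were higher.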
